A study of Drosophila melanogaster with 6 samples.

Results

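The genes described here are enzymes that remove superoxide and peroxides in the fly, together with the main regulators of their response. The set of 10 named superoxide dismutase, catalase, peroxiredoxin, glutathione and regulator genes was matched to the gene symbols of the platform annotation, and every probe set with 1 matching symbol was taken. This gave 7 of the 10 genes, with 8 probe sets, out of 11982 genes with such a probe set. Sod2, Cat, Prx3, Gclc, cnc and Keap1 matched by symbol, and PHGPx matched as Gtpx, its RefSeq symbol. Sod1, Jafrac1 (now Prx2) and Jafrac2 (now Prx4) were not analysed here, because the annotation used names no probe set for them. The set therefore holds 1 superoxide dismutase, 1 catalase and 1 peroxiredoxin.

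RNA of heart/nephrocyte complexes from adult Drosophila melanogaster females was hybridised to 6 single-channel Affymetrix arrays. Of these, 3 came from flies kept for 21 days on food containing 0.1 M glucosamine, an amino sugar, and 3 from flies kept as long on food containing 1.0 M sucrose. Both diets were thus supplemented, with compounds that differed in kind and concentration, no standard diet was analysed here, and the sources used here state neither genotype nor exact age. The labels name 30 females without saying how they were divided among the arrays, so the p-values reflect the spread among these samples alone, which may be technical. On 2 arrays markers of another tissue stood apart. Summed gut markers were 10002 on glucosamine replicate 3 and at most 1127 elsewhere, and summed ovary markers were 7914 on sucrose replicate 1 and at most 1006 elsewhere.

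Pericardial nephrocytes, which filter the fly's blood, lie along its heart tube. Superoxide leaks from the respiratory chain, and superoxide dismutases turn it into hydrogen peroxide. Catalase destroys hydrogen peroxide in peroxisomes, while peroxiredoxins and glutathione peroxidase-like enzymes reduce peroxides with electrons from thioredoxin or glutathione. The transcription factor encoded by cnc, the fly counterpart of the mammalian Nrf factors, switches on antioxidant genes, and Keap1 holds it in check. In the fly heart, reactive oxygen species of the pericardial cells are known as a signal to the neighbouring heart muscle.

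Between glucosamine-fed and sucrose-fed flies, the question was whether these genes differed in expression. Sod2, the gene of the mitochondrial manganese superoxide dismutase, was lower after glucosamine and was the 1 gene of the 7 to pass the test, while none passed as higher. The test was that of limma, fitted across all genes on log2(intensity + 16), with Benjamini-Hochberg adjustment over 10022 tested genes and unnamed probe sets and a threshold of 0.05. Of everything tested, 18.5% passed in either direction, 8.61% as lower and 9.93% as higher, so 1 call among 7 genes is near the background and is no result about the set as a whole. The median log2 difference, glucosamine minus sucrose, was 0.13 over the 7 genes and −0.03 over all genes tested, with 3 of the 7 differences below 0 and 4 above. All 7 genes passed the filter on low intensities, which left out the 40% with the lowest mean.

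**Figure D1:**
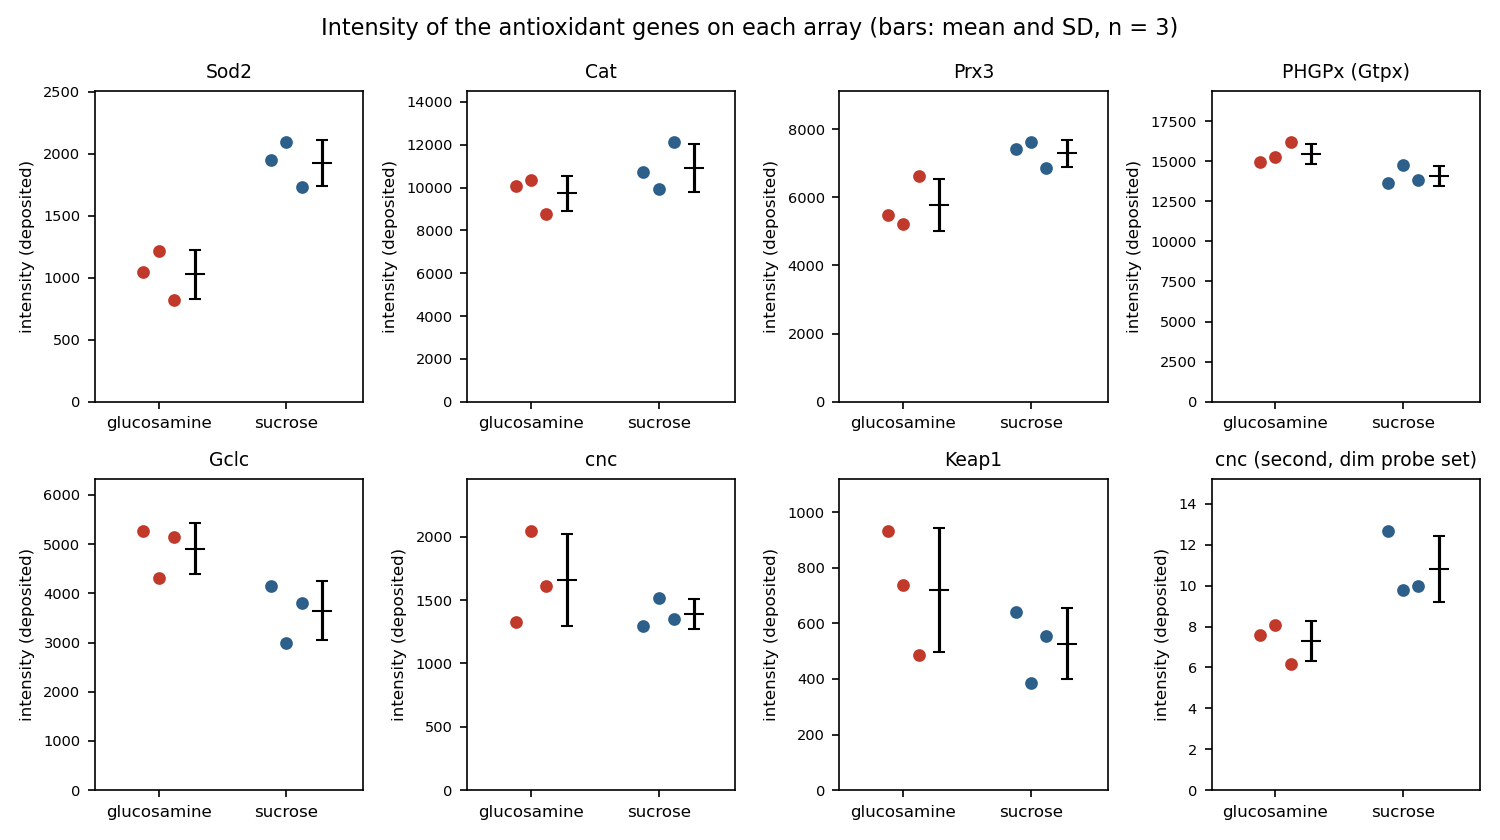
Intensity as deposited (linear axis from 0) of each gene on the 3 glucosamine arrays (red) and the 3 sucrose arrays (blue), in the order of replicates 1 to 3, with mean and SD beside the points. All 3 Sod2 values after glucosamine lie under the lowest sucrose value, the groups of Cat, cnc and Keap1 overlap, and the last panel shows the dim second probe set of cnc.

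Sod2 had an intensity of 1045, 1217 and 818 on the glucosamine arrays and 1951, 2091 and 1729 on the sucrose arrays. The highest glucosamine value lay well under the lowest sucrose value. The means were 1027 ± 200.1 against 1924 ± 183 (SD, n = 3 each), a ratio of 0.534. The log2 difference was −0.91 ± 0.18 (SE; 95% interval −1.35 to −0.47; limma adjusted p = 0.0194), which placed Sod2 at percentile 6.35 of all tested differences. The call was lost when glucosamine replicate 1 (−0.93; adjusted p = 0.0669), sucrose replicate 1 (−0.90; 0.0575) or sucrose replicate 2 (−0.85; 0.0634) was left out. Over all 18 alternative settings the difference stayed between −1.04 and −0.75.

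Other measures moved with the groups in which Sod2 differed. Of 9 nephrocyte markers, all of them tested, 7 fell and none rose, 1 (zyd) was under 50 on every array, and their summed intensity was 6709 to 8441 on the glucosamine arrays against 23690 to 38572 on the sucrose arrays. Of 7 cardiac markers tested 1 fell and none rose, with a median log2 difference of −0.01. The sums of the 8 on the array were 9741 to 11785 against 14865 to 18913, and pnr, Doc1 and Doc2 were under 50 throughout. No muscle, fat body or hemocyte marker passed, and the sums of these 3 lists overlapped between the groups. In whole complexes, fewer cells of a type and less RNA per cell cannot be told apart. The log2 signal at the 5′ end minus that at the 3′ end of the eIF-4a control was also lower on the glucosamine arrays, by −0.74. For 1 GAPDH control it differed by −0.15 and for 18S rRNA by −0.12, and these groups were also apart. The 3 other controls had overlapping groups. They differed by −0.27 for actin, −0.11 for a second GAPDH control and, in the opposite direction, 0.60 for Act5C. The part of these measures in the Sod2 difference was not tested. Without both glucosamine replicate 3 and sucrose replicate 1, the arrays with gut and ovary markers, a choice made after seeing the data, Sod2 had a log2 difference of −0.75 (limma adjusted p = 0.111). Without these arrays Prx3 was at −0.43, Cat at −0.10, PHGPx at 0.08, cnc at 0.20, Keap1 at 0.82 and Gclc at 0.49, and none of them passed.

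Prx3 encodes the mitochondrial peroxiredoxin, which acts on the peroxide that Sod2 produces. Its intensity was 5471, 5224 and 6637 on the glucosamine arrays and 7410, 7611 and 6855 on the sucrose arrays. The groups did not overlap, but glucosamine replicate 3 came close to the lowest sucrose array. The log2 difference was −0.34 ± 0.15 (SE; 95% interval −0.69 to 0.01; limma adjusted p = 0.163), which did not pass. The Sod2 and Prx3 intervals overlapped, and the difference between these 2 mitochondrial genes was not tested.

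Cat, the gene of peroxisomal catalase, had an intensity of 10067, 10328 and 8776 after glucosamine and 10701, 9926 and 12108 after sucrose. The groups overlapped, since 2 glucosamine arrays lay above the lowest sucrose array. The log2 difference was −0.16 ± 0.15 (SE; 95% interval −0.51 to 0.18; limma adjusted p = 0.476). This interval overlaps that of Sod2, and the difference between the Cat and Sod2 values was not tested.

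PHGPx, whose product belongs to the phospholipid hydroperoxide glutathione peroxidase family and in the fly uses thioredoxin, had an intensity of 14949, 15244 and 16182 after glucosamine. On the sucrose arrays it was 13643, 14793 and 13822. All 3 glucosamine values were above all 3 sucrose values, by a margin small beside the intensities. The log2 difference was 0.13 ± 0.12 (SE; 95% interval −0.16 to 0.43; limma adjusted p = 0.498). Replicates of PHGPx were the closest of the 7 genes, with the highest array at 1.08 times the lowest in each group.

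Gclc encodes the catalytic subunit of glutamate-cysteine ligase, the rate-limiting enzyme of glutathione synthesis. Its intensity was 5270, 4309 and 5138 on the glucosamine arrays and 4145, 2994 and 3814 on the sucrose arrays. The groups lay apart, with glucosamine higher. The means were 4906 ± 521 and 3651 ± 593 (SD, n = 3 each), and the log2 difference was 0.43 ± 0.17 (SE; 95% interval 0.01 to 0.85). It had an unadjusted p of 0.0443 in the limma fit and did not pass after adjustment (adjusted p = 0.140). Of everything tested, 32.9% had an unadjusted p under 0.05.

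The regulator cnc had an intensity of 1324, 2047 and 1609 after glucosamine and 1298, 1520 and 1349 after sucrose. Glucosamine replicate 1 lay inside the sucrose range and the other 2 glucosamine arrays lay above it. The log2 difference was 0.24 ± 0.19 (SE; 95% interval −0.22 to 0.69; limma adjusted p = 0.432), and it was 0.07 without glucosamine replicate 2, 0.39 without glucosamine replicate 1 and 0.02 as the mean of both cnc probe sets. A second probe set of cnc was dim, with 7.60, 8.10 and 6.18 after glucosamine and 12.7, 9.80 and 9.97 after sucrose. These values lie under the array medians of 14.8 to 17.4 and the probe set did not pass the filter, so it has no test. The groups of the dim probe set lay apart in the opposite direction. The gene makes several transcripts, and which of them each probe set reads is not given in the sources used here.

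Keap1, whose product binds the cnc protein, had an intensity of 932.6, 738.9 and 487.2 on the glucosamine arrays and 640.7, 387.1 and 553.4 on the sucrose arrays. The groups overlapped, and the spread among replicates was the widest of the tested probe sets of the 7 genes, with the highest array at 1.91 times the lowest after glucosamine and 1.66 times after sucrose. The log2 difference was 0.42 ± 0.29 (SE; 95% interval −0.27 to 1.11; limma adjusted p = 0.355). It was 0.21 without glucosamine replicate 1 and 0.67 without glucosamine replicate 3, so its size depended on single arrays. The interval is too wide to show whether Keap1 changed.

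**Figure D2:**
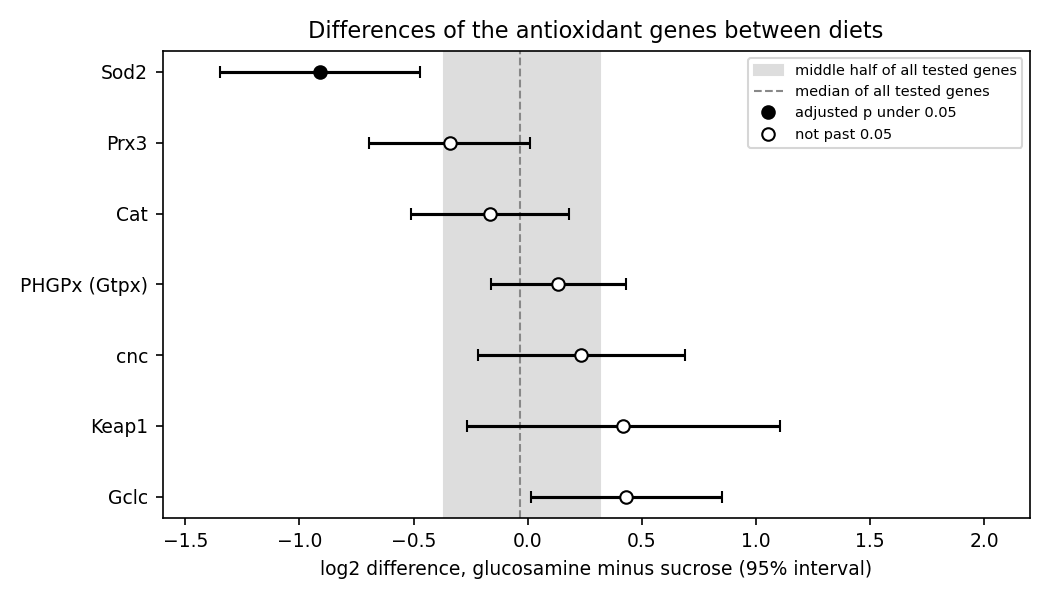
Log2 difference (glucosamine minus sucrose) of each gene with its 95% interval from limma; filled points passed an adjusted p of 0.05. The grey band is the interquartile range of all 10022 tested differences, from −0.37 to 0.32, and the dashed line their median. Sod2, at −0.91, is filled and lies outside the band, and Prx3, Cat, PHGPx and cnc have their points inside it.

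Ordered from lowest to highest difference, the genes ran from Sod2 through Prx3, Cat, PHGPx, cnc and Keap1 to Gclc. Neighbours in this order had overlapping intervals throughout. Among these only Sod2 passed, so the signs of the others are values and not calls. The groups of 4 of the 7 genes did not overlap, namely Sod2 and Prx3 as lower and PHGPx and Gclc as higher, where 39.0% of everything tested had groups that did not overlap, 20.0% as lower and 18.9% as higher. With 3 arrays in each group, the smallest two-sided p of an exact permutation test is 0.1. Each call therefore rests on the distribution that limma assumes. With trend and robust options for the variance limma shares among genes, Sod2 still passed (limma adjusted p = 0.0169). Calls without any such sharing were not tested.

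Cat, Prx3, PHGPx and Gclc were among the 1002 brightest of the tested genes. The median log2 difference of these 1002 moved with the scaling between arrays: it was −0.10 as deposited, −0.03 after quantile normalization and 0.04 after cyclic loess. Under cyclic loess Cat was at −0.02, Prx3 at −0.21, PHGPx at 0.28 and Gclc at 0.55, and none of them passed (limma adjusted p = 0.930, 0.358, 0.167 and 0.0749). Sod2 was at −0.82 under cyclic loess and passed (limma adjusted p = 0.0286).

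**Figure D3:**
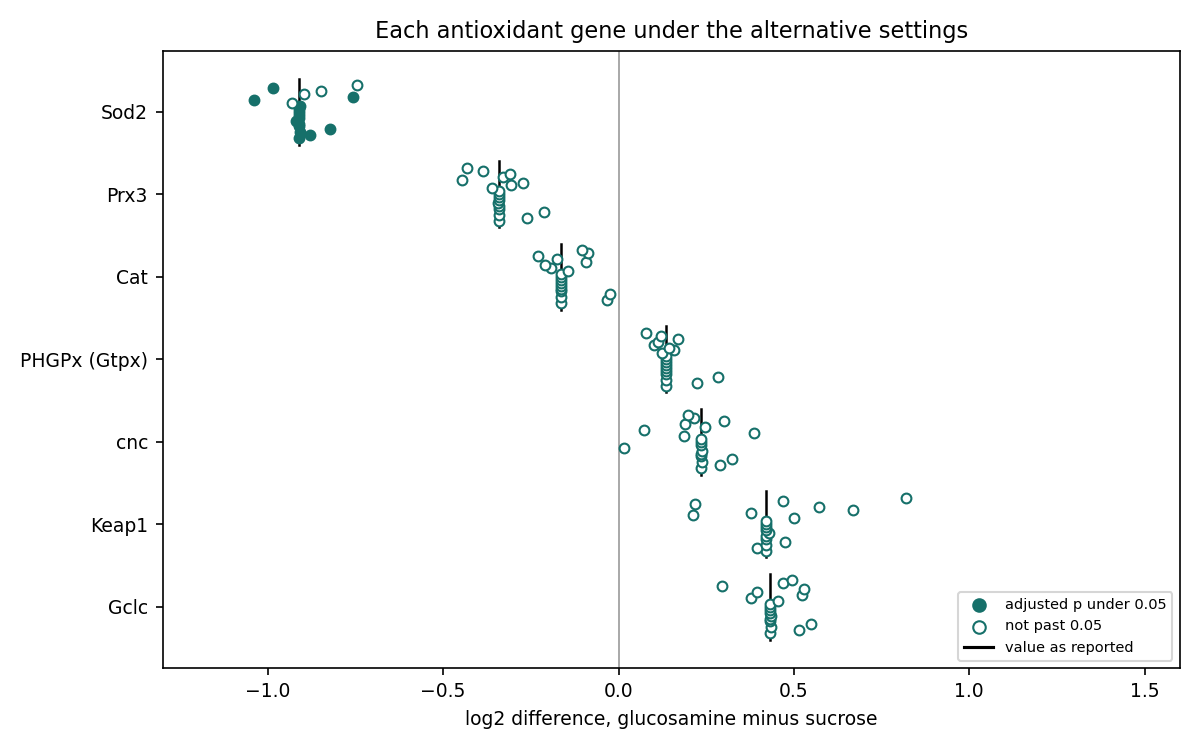
Log2 difference (glucosamine minus sucrose) of each gene as reported (black line) and under each of 18 alternative settings (points, spread vertically); filled points passed an adjusted p of 0.05. All points of a gene stay on 1 side of 0, and filled points occur for Sod2 alone.

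The rest of the antioxidant system was read from 8 lists of 67 genes on the array, of which 59 passed the filter. Of the 59, 6 rose, 12 fell and 41 did not pass, with a median log2 difference of −0.17 beside −0.03 over all genes tested. The share that passed was 30.5%, beside 18.5% of everything tested, with 8.61% lower and 9.93% higher in that background. Between the same groups, 7 of 9 nephrocyte markers fell and the eIF-4a control shifted by −0.74. The Act5C control, whose groups overlapped, was at 0.60. The part of these measures in the changes of the 59 genes was not tested. Single arrays moved these counts: falls numbered 3, 7 and 5 when glucosamine replicate 1, 2 or 3 was left out and 4 when sucrose replicate 2 was, and rises numbered 2 or 3 when glucosamine replicate 1 or 2 was left out and 3 when sucrose replicate 1 was. Without both glucosamine replicate 3 and sucrose replicate 1, 1 gene (msn) rose and 2 (Sod3 and Cyp6a2) fell.

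Among 4 other superoxide dismutase and catalase-like genes tested, Sod3 fell and none rose, where 8.61% of everything tested was lower. Sod3, the extracellular copper-zinc enzyme gene, had an intensity of 50.7, 60.1 and 37.2 after glucosamine and 192.5, 143.1 and 169.8 after sucrose. The groups were well apart (log2 difference −1.50 ± 0.19, SE; limma adjusted p = 0.00504), and Sod3 passed in each of the 6 fits without 1 array. A second probe set of Sod3 fell by 1.11 on the log2 scale (limma adjusted p = 0.0153 in a fit of all probe sets separately). It was dim, averaging 16.95 after glucosamine and 56.4 after sucrose, where the array medians were 14.8 to 17.4. Ccs, of the copper chaperone that loads the cytoplasmic enzyme, did not pass and differed by −0.16 (adjusted p = 0.511).

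Of 11 other peroxiredoxin and thioredoxin genes tested, Prx6a and CG8993 fell and none rose. The share that passed, 18.2%, was near the 18.5% of everything tested and is no result about the list. Prx6a, of the peroxiredoxins with 1 catalytic cysteine, averaged 247 ± 25.1 in intensity after glucosamine and 538 ± 124 after sucrose (SD, n = 3 each; log2 difference −1.06; limma adjusted p = 0.0139, and 0.0574 without glucosamine replicate 1). Prx6c, named after its value was seen, differed by 0.63 and did not pass. A probe set shared by Prx6b, CG12896 and Prx6c was not tested. It averaged 6102 after glucosamine and 5808 after sucrose, with overlapping groups. CG8993, a thioredoxin-like gene, had a log2 difference of −0.56 and lost its call whichever array was left out (adjusted p between 0.0573 and 0.120). Trxr1, of thioredoxin reductase, which in the fly also keeps glutathione reduced, differed by 0.38 (adjusted p = 0.128). Of 6 other glutathione and glutaredoxin genes tested, 16.7% passed, again near the 18.5% of everything tested, and none rose. Grx5, of the glutaredoxin for iron-sulfur clusters, fell by 0.85. Its adjusted p was 0.0157 and lost the threshold when glucosamine replicate 1 (0.0642), glucosamine replicate 3 (0.0514) or sucrose replicate 2 (0.0519) was left out.

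The 13 other regulators around cnc, Keap1 and stress kinases held 4 rises and 1 fall, where 9.93% of everything tested rose and 8.61% fell. The rises numbered 1 to 3 when any 1 array was left out and 1 with no filter. The count of 1 came without glucosamine replicate 1, and it was 2 without glucosamine replicate 2 or any 1 sucrose array. The kinase gene msn, which acts upstream of JNK, rose from 406 ± 28.6 to 1532 ± 334 (SD, n = 3 each; log2 difference 1.85; limma adjusted p = 0.00345) and passed in all 6 fits without 1 array. Cul3, whose product is the ubiquitin ligase scaffold that Keap1 recruits in mammals, rose by 1.05, and the Fos gene kay by 0.92. A second, dim probe set of Cul3 was not tested and differed by 0.05, and the mean of both Cul3 probe sets rose by 0.55 (adjusted p = 0.0470). Atf3, named after its value was seen, rose by 0.99. When 1 array at a time was left out, Cul3, kay and Atf3 held in 2 of 6 fits apiece (adjusted p up to 0.0916, 0.0976 and 0.101). A second probe set of kay rose by 0.87 (limma adjusted p = 0.00956 in a fit of all probe sets separately). It was dim, averaging 37.6 after glucosamine and 13.5 after sucrose, where the array medians were 14.8 to 17.4. The fall was that of dj-1beta, which protects against oxidative stress, at −0.76 (adjusted p = 0.0133), past the threshold in all 6 such fits but not without both glucosamine replicate 3 and sucrose replicate 1 (0.0858).

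Of 8 tested detoxification genes known as targets of cnc in the fly, GstD5 rose and Cyp6a2 and Jheh2 fell. Of everything tested, 9.93% rose and 8.61% fell. The other 5 targets did not pass. They were GstE1 at 0.56 (limma adjusted p = 0.0563), GstD1 at 0.25, GstS1 at −0.17, Cyp6a8 at −1.45 and GstD2 at −1.48. All of these but GstE1 were named after their values were seen. The median log2 difference of the 8 was −0.46. A probe set shared by Cyp12d1-d and Cyp12d1-p was not tested and averaged 428 after glucosamine against 1257 after sucrose. GstD5, a glutathione S-transferase gene, had 1564 ± 295 against 469 ± 248 (SD, n = 3 each; log2 difference 1.83; limma adjusted p = 0.0247) and Cyp6a2, a cytochrome P450 gene, 278 ± 114 against 1307 ± 314 (SD, n = 3 each; −2.21; adjusted p = 0.00636). Cyp6a2 passed in all 6 fits without 1 array, GstD5 in 2 and Jheh2 (−0.74) in none, with adjusted p up to 0.0337, 0.0728 and 0.0936. NADPH is the reductant of both peroxide-removing systems. Of 4 tested genes listed as its suppliers, Nmdmc rose by 1.35 (limma adjusted p = 0.00444) and none passed as lower. Of everything tested, 9.93% was higher. Whether Nmdmc, placed in this list beforehand, supplies NADPH at all was not tested. Idh was at −0.48 (adjusted p = 0.0640), Men at −0.45 (0.140) and Men-b at 0.19 (0.634). Zw and Nnt, also listed as suppliers, matched no probe set. Pgd had only a probe set shared with D2hgdh, which was not tested and averaged 565 after glucosamine against 1101 after sucrose. Of 5 oxidase and haem peroxidase genes tested by limma none passed, and mol, of a factor that matures the oxidase Duox, came nearest at −0.74 (adjusted p = 0.0524) and was the 1 gene with an unadjusted p under 0.05 (0.00999).

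Peroxisome biogenesis genes, whose products build the organelle that holds catalase, had 5 falls and no rise among 8 tested, with a median log2 difference of −0.61, where 8.61% of everything tested was lower. The nephrocyte markers, with 7 of 9 lower and sums of 6709 to 8441 against 23690 to 38572, and the eIF-4a control, at −0.74, moved between the same groups. The Act5C control, whose groups overlapped, was at 0.60. The part of these measures in the falls of the peroxisome genes was not tested. Pex5, the import receptor gene, fell by 0.82 (limma adjusted p = 0.0284), Pex10 by 0.78, Pex2 by 0.68 and Pex16 by 0.65, and Pex19, named after its value was seen, by 0.57. The 5 falls became 3 when sucrose replicate 1 was left out, 1 when glucosamine replicate 2 or 3 was, and 0 when glucosamine replicate 1 or sucrose replicate 2 or 3 was, while the median stayed between −0.62 and −0.52. They became 3 with median centring, 2 with cyclic loess, 1 on log2(intensity + 1) and 0 with no filter. Cat itself, at −0.16, did not pass, and its difference from the Pex genes was not tested.

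**Figure D4:**
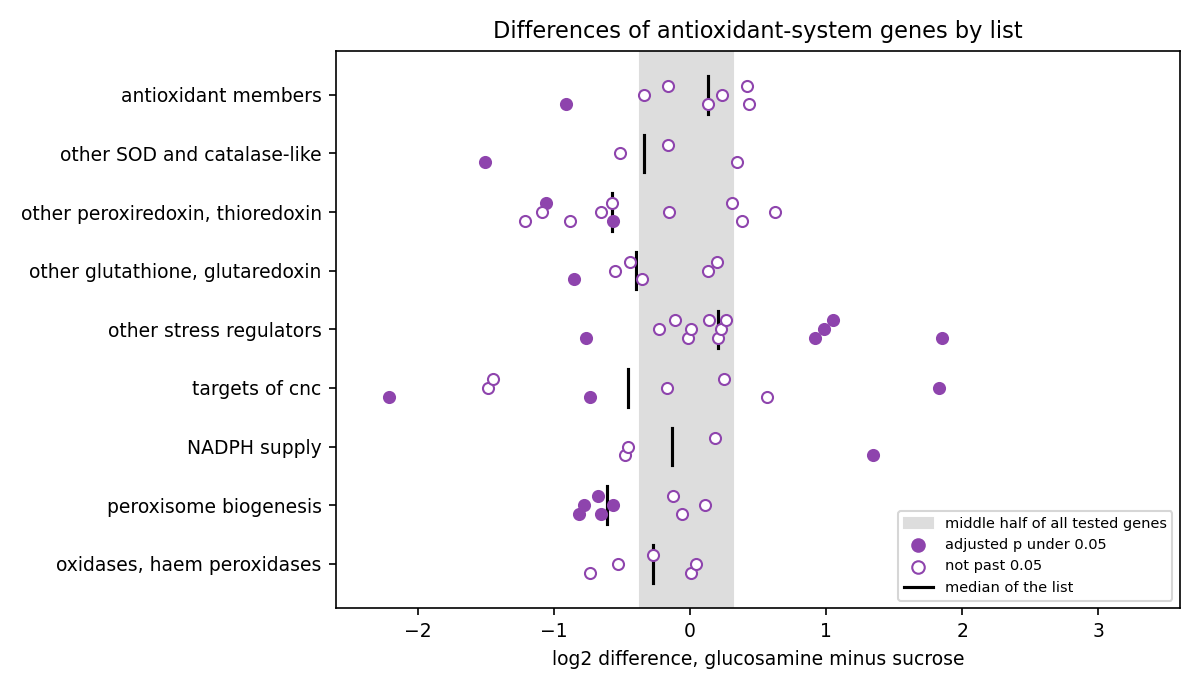
Log2 difference (glucosamine minus sucrose) of every tested gene in each list, 1 point per gene, with filled points past an adjusted p of 0.05 and the list's median as a black line. The grey band is the interquartile range of all tested genes. The peroxisome list has 5 filled points below 0, the other regulators have 4 filled points above 0, and the antioxidant members have the 1 of Sod2.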

How the data were processed

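RNA was isolated using Trizol, then RNeasy MinElute columns, and labelled as biotinylated cRNA, per the labels' protocols. The values the authors deposited are linear intensities of single probe sets, from 4.32 to 46624. The sources used here do not state how probes were summarised and normalized, and the upper quartiles of 222 to 237 led to the values being used as deposited. No detection calls were used here, and the number of arrays limits the precision. The sample titles gave each array's group and replicate number.

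Of 18952 probe sets, 183 controls and 402 annotated with several symbols were left out, the brightest probe set on average stood for each gene, and the 40% of 16702 genes and unnamed probe sets with the lowest mean were left out. Differences on log2(intensity + 16), computed here from the deposited intensity, were tested two-sided in limma 3.58.1 (lmFit, eBayes; R 4.3.3), and the script was tested on simulated data. Symbols came from the platform annotation, and older names were matched through RefSeq (Release 6 plus ISO1 MT), whose coordinates were not used. No sequence table was used here. Figures were drawn with matplotlib 3.10.9.

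The members and lists were chosen with earlier results of these data known. Named are the members and, in each other list, genes among the up to 4 with the smallest unadjusted p. Genes named outside that rule are said to have been chosen after their values were seen. Alternatives were 3 scalings, 2 filters, log2(intensity + 1), 2 ways to treat probe sets, eBayes with trend and robust options, a replicate block, array weights, each array left out, and an unadjusted p, and 1 more, without both glucosamine replicate 3 and sucrose replicate 1, was added after seeing the data.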

Additional observations from a re-analysis of the deposited data

How the results depend on the processing

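Each of the 7 antioxidant genes kept its direction in all 18 alternative settings, and the 6 that did not pass passed in none. Sod2 passed in 14, and the 1 call became 0 without glucosamine replicate 1, sucrose replicate 1 or sucrose replicate 2 and 0 without both glucosamine replicate 3 and sucrose replicate 1, a setting added after seeing the data. Without 1 array the number of these genes lower was between 0 and 1 and the number higher was 0. At an unadjusted p under 0.05, Gclc would be 1 higher gene. Of the 59 other antioxidant-system genes, the number higher was 2 to 5 without 1 array, 2 with no filter and 1 without both arrays, and the number lower was 3 to 9 without 1 array, 6 with no filter, 7 on log2(intensity + 1) and 2 without both arrays. Same-numbered arrays did not deviate together (correlations across genes of 0.02, −0.12 and −0.05), and no glucosamine array correlated best with the sucrose array of its own number. With 3 arrays in each group, these correlations cannot exclude a shared batch. With the replicate block, 5 of the 59 other antioxidant-system genes were higher and 5 lower, and 0 of the 8 peroxisome genes passed. Sod2 then had an adjusted p of 0.0390 in limma and dj-1beta one of 0.0586. Across all genes 588 were higher and 400 lower with the block, against 995 and 863. Across all genes 496 to 829 were higher and 286 to 635 lower without 1 array, 213 and 122 without both arrays, and 1665 and 1635 at an unadjusted p under 0.05. Fewer arrays lower the power of the test, and the cause of the changes in these counts was not tested. Genes that were never called changed sign: CatB ranged from −0.85 to 0.013 with arrays left out (0.013 without both), Men-b from −0.0097 (without glucosamine replicate 2) to 0.49, Pxt from −1.35 to 0.36 (0.36 without sucrose replicate 1, 0.03 without both), and Pxn from −0.11 to 0.28, with −0.05, −0.07 and −0.11 without glucosamine replicate 1, glucosamine replicate 2 and sucrose replicate 2. Low intensities, such as those of the second cnc probe set, have differences understated by the pseudocount of 16.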
